A study of Homo sapiens with 4 samples.

Results

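CA2 and CA9 are 2 genes of the carbonic anhydrase family, and their transcript levels were followed in 4 RNA sequencing libraries of human colorectal cancer cells with or without knockdown of EZH2, the histone H3K27 methyltransferase of Polycomb repressive complex 2. They are 2 of the 7640 genes of the deposited table, taken as the rows with these symbols (gene IDs 760 and 768). The pair was chosen by its measured levels in these libraries and its differences between them, a gene of colon differentiation and a gene of hypoxia from the same family, so the values of CA2 and CA9 are described here and carry no test.

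The 4 libraries were RKO shEZH2, RKO NC, HCT116 shEZH2 and HCT116 NC, with 1 library in each group. RKO and HCT116 are established colorectal cancer cell lines. The shEZH2 cells carried a short hairpin RNA against EZH2 and the NC cells a control hairpin, both delivered by lentivirus, and stably infected cells were obtained with puromycin. Which of the EZH2 hairpins each line received is not in the labels, and they name no other treatment. With no replicate within a line, a difference between shEZH2 and NC had no replicate check, and the intervals given here cover counting error only. Fewer fragments of a transcript may come from less RNA per cell or from fewer cells that express it, which cannot be told apart in these bulk samples.

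Carbonic anhydrases convert carbon dioxide and water to bicarbonate and a proton, and back again. CA2 is a cytosolic and very active form. In the colon it is a product of mature surface epithelium, where bicarbonate and protons made in the cell feed the exchangers that absorb salt, and it is also abundant in red cells, osteoclasts and the kidney. CA9 sits in the plasma membrane with its catalytic part outside the cell. It is a classic target of hypoxia-inducible factor 1 (HIF-1), is scarce in most healthy tissue, and is widely used as a marker of tumor hypoxia, where it helps cells dispose of acid.

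EZH2 was lower in both shEZH2 libraries. Its level was 6.61 FPKM in RKO shEZH2 against 33.61 in RKO NC, and 12.61 FPKM in HCT116 shEZH2 against 31.49 in HCT116 NC. FPKM divides the fragments of a gene by its transcript length and by library depth, so that levels can be compared between genes. The listed genes held 7898152 to 8185776 expected counts in each library. The epithelial label was also checked. EPCAM, an adhesion molecule of epithelia, was at 0.06 and 0.00 FPKM in RKO shEZH2 and NC, against 156.36 and 176.54 in HCT116 shEZH2 and NC. E-cadherin (CDH1) was at 0.10 FPKM in each RKO library and at 23.71 and 25.30 in HCT116 shEZH2 and NC, and KRT19 was listed at 0.00 and 0.04 in RKO. By contrast CDX2, an intestinal transcription factor, lay between 6.91 and 10.66 FPKM in all 4 libraries. KRT18 was at 187.91 and 154.04 FPKM and KRT8 at 7.63 and 7.05 FPKM in RKO shEZH2 and NC. Some defining markers of epithelium were therefore at or near 0 in RKO and others were present.

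CA2 was the most abundant carbonic anhydrase of the table in 3 of the 4 libraries, and was lower in the shEZH2 library of each line. Its level was 22.96 FPKM in RKO shEZH2 (709 fragments) against 31.00 FPKM in RKO NC (969 fragments). In HCT116 it was 11 FPKM in shEZH2 (308 fragments) against 22.11 FPKM in NC (624 fragments). RKO NC was thus the highest library and HCT116 shEZH2 the lowest, while RKO shEZH2 and HCT116 NC lay next to each other. The 95% Poisson intervals of these neighbours, 21.3 to 24.7 FPKM in RKO shEZH2 and 20.4 to 23.9 in HCT116 NC, overlapped, and those of the other neighbours did not.

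In HCT116 the CA2 level with shEZH2 was 2.01-fold under that of NC. The difference of log2(FPKM + 1), the measure of change used throughout, was -0.95, and the depth-scaled ratio of counts was 0.497 (95% exact binomial interval 0.433 to 0.571). Only 10 of the 6139 measured genes, those with a mean of at least 1 FPKM over the libraries, had a lower value in HCT116, EZH2 among them. In RKO the CA2 level was 1.35-fold under NC, with a log2 difference of -0.42 and a count ratio of 0.741 (0.672 to 0.817). There 4.02% of measured genes were at or under the value of CA2. The count ratios of the lines had intervals that did not overlap, and the log2 differences were 0.53 apart (RKO minus HCT116).

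**Figure D1:**
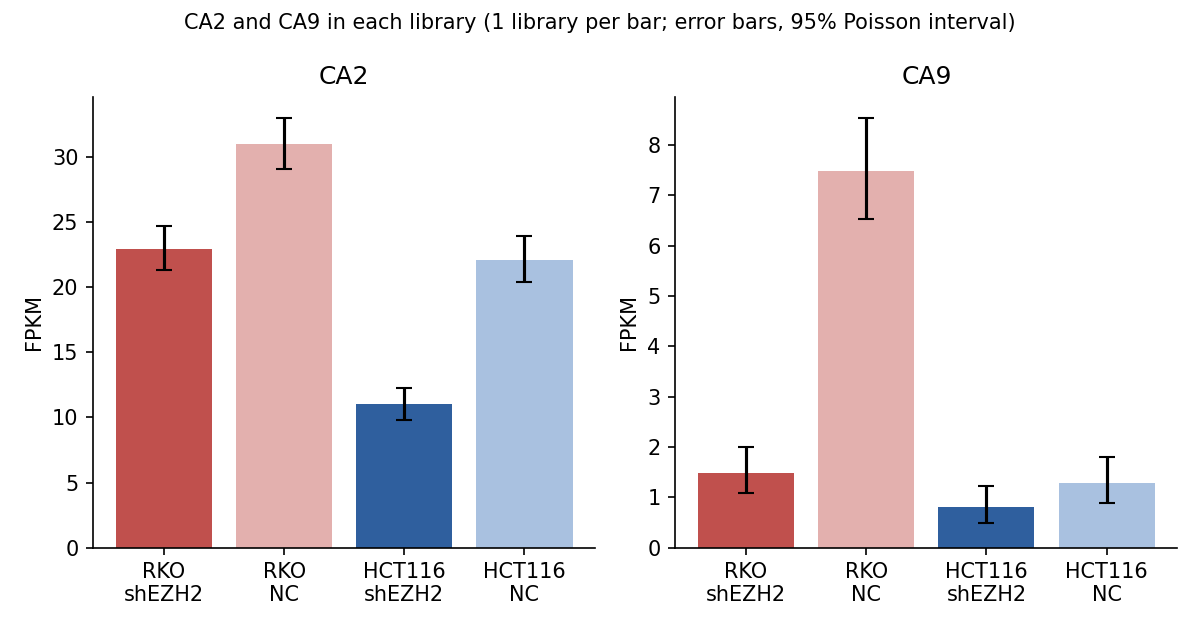
CA2 (left) and CA9 (right) in FPKM in the 4 libraries, shEZH2 beside NC within each line; each bar is 1 library and the error bars are 95% Poisson intervals of its fragment count. CA2 reaches 31.00 FPKM in RKO NC and 11 in HCT116 shEZH2, and CA9 stands at 7.48 FPKM in RKO NC and at 1.49 or less in the other 3 libraries.

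CA9 was scarcer than CA2 in every library and had its highest level in RKO NC. Its level was 1.49 FPKM in RKO shEZH2 (43 fragments) against 7.48 FPKM in RKO NC (219 fragments). In HCT116 it was 0.80 FPKM in shEZH2 (21 fragments) against 1.29 FPKM in NC (34 fragments). The order was RKO NC, RKO shEZH2, HCT116 NC and HCT116 shEZH2. Intervals of neighbours overlapped for the 3 lower libraries (1.08 to 2.01, 0.893 to 1.80 and 0.495 to 1.22 FPKM), and RKO NC, at 6.52 to 8.54 FPKM, lay apart from them.

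In RKO, CA9 with shEZH2 was 5.02-fold under NC, a log2 difference of -1.77 and a count ratio of 0.199 (0.140 to 0.277). Of all measured genes only EZH2 (-2.19) and HIST1H4J (-3.81) had a lower value there, and HIST1H4J has near-identical histone copies between which reads can be split. In HCT116 the log2 difference of CA9 was -0.35, but the count ratio of 0.622 had an interval of 0.343 to 1.10, which includes 1, so a difference was not detectable at this depth. The log2 differences of CA9 in the lines were 1.42 apart, with RKO the lower (RKO minus HCT116, -1.42).

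**Figure D2:**
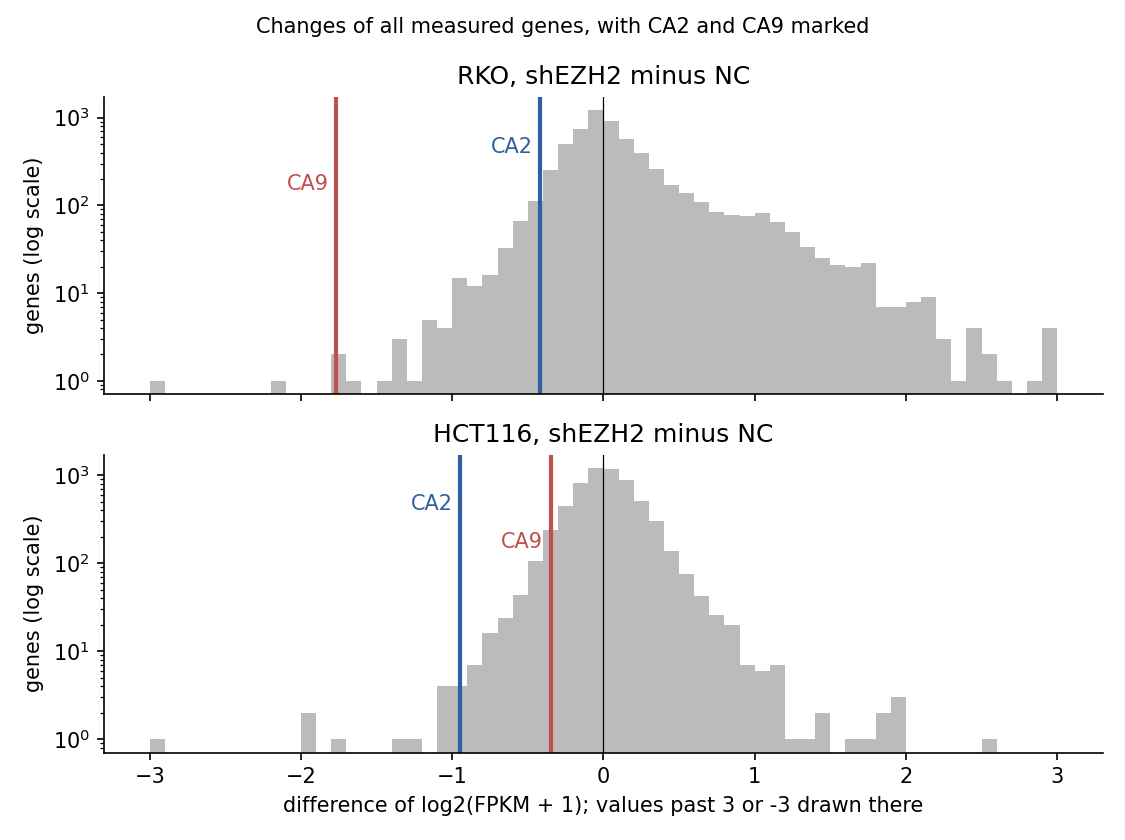
Number of measured genes (log scale) by difference of log2(FPKM + 1), shEZH2 minus NC, in RKO (top) and HCT116 (bottom), with CA2 and CA9 as vertical lines; values past 3 or -3 are drawn there. CA9 lies in the low tail at -1.77 in RKO, and CA2 in the low tail at -0.95 in HCT116.

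Both genes were past 1.2-fold, the threshold used here for a difference within a line, in the lower direction in RKO and in HCT116. Among all measured genes, 10.9% were over 1.2-fold lower in RKO, 9.66% in HCT116 and 2.66% in both. Since the pair was picked with these differences known, nothing is read from its standing among them. Higher genes made up 22.7% in RKO and 12.7% in HCT116. That RKO split, 1394 genes up against 671 down, moved with the scaling. It was 1192 against 1054 under median-of-ratios scaling, 975 against 1033 with the GC trend subtracted, and 1301 against 1829 for counts under TMM scaling, which shifted the median of all genes by -0.11. On the TMM scale CA2 stood at -0.59 and CA9 at -2.29 in RKO, both further from 0 than that shift.

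The GC content of transcripts varied with the RKO differences, so the position of the pair on that scale was recorded. The tenth of measured genes with the lowest GC had a median log2 difference of 0.68 in RKO and 0.05 in HCT116. The longest transcript of CA2 was 45.0% GC and that of CA9 60.1%. With the GC trend subtracted, the differences of CA2 were -0.45 in RKO and -0.95 in HCT116, and those of CA9 were -1.75 and -0.29.

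The lines also differed in the level of the pair. Among the NC libraries, CA9 was 5.80-fold higher in RKO than in HCT116 (count ratio 5.82, interval 4.04 to 8.61), and among the shEZH2 libraries it was 1.86-fold higher in RKO (1.08 to 3.30). CA2 was 1.40-fold higher in RKO than in HCT116 among NC libraries (1.27 to 1.55) and 2.09-fold higher among shEZH2 libraries (1.82 to 2.39). The gap between the lines was thus narrower with shEZH2 for CA9 and wider for CA2. Set against each other, CA9 amounted to 6.49% of the CA2 level in RKO shEZH2 and 24.1% in RKO NC, and to 7.27% in HCT116 shEZH2 and 5.83% in HCT116 NC.

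The table listed 7 of the 15 carbonic anhydrase genes, of which 5 were measured and CA4 and CA8 stayed under 1 FPKM on average. Summed over the 7, the family came to 41.83 FPKM in RKO shEZH2 against 55.81 in RKO NC, and to 30.30 in HCT116 shEZH2 against 42.81 in HCT116 NC. CA2 made up 54.9% of that sum in RKO shEZH2 and 55.5% in RKO NC, and 36.3% in HCT116 shEZH2 and 51.6% in HCT116 NC.

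CA12, which like CA9 spans the plasma membrane with its catalytic part outside, was lower in the shEZH2 library of each line. It was at 4.79 FPKM in RKO shEZH2 against 6.18 in RKO NC (count ratio 0.771, interval 0.671 to 0.883). In HCT116 it was at 1.09 FPKM in shEZH2 against 1.77 in NC (0.633, 0.471 to 0.848). Of the 3 measured family genes other than the pair, no gene but CA12 passed 1.2-fold in the lower direction in RKO and in HCT116.

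CA13, a cytosolic form, was at 9.27 FPKM in RKO shEZH2 against 6.78 in RKO NC (count ratio 1.37, interval 1.22 to 1.54), and at 2.35 FPKM in HCT116 shEZH2 against 2.92 in HCT116 NC (0.805, 0.646 to 0.999). Subtracting the GC trend left 0.22 of its RKO log2 difference of 0.40, which is inside 1.2-fold. CA11, a secreted family member without catalytic activity, was at 2.95 FPKM in RKO shEZH2 against 4.21 in RKO NC (0.700, 0.538 to 0.909). In HCT116 it was at 13.74 FPKM in shEZH2 against 12.94 in NC and was the most abundant carbonic anhydrase of HCT116 shEZH2, above CA2. CA8, likewise inactive, was near 0 in RKO (0.02 and 0.03 FPKM in shEZH2 and NC) and at 1.23 and 1.55 in HCT116, and CA4, the lipid-anchored form of the colon surface, did not exceed 0.35 FPKM in any library.

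**Figure D3:**
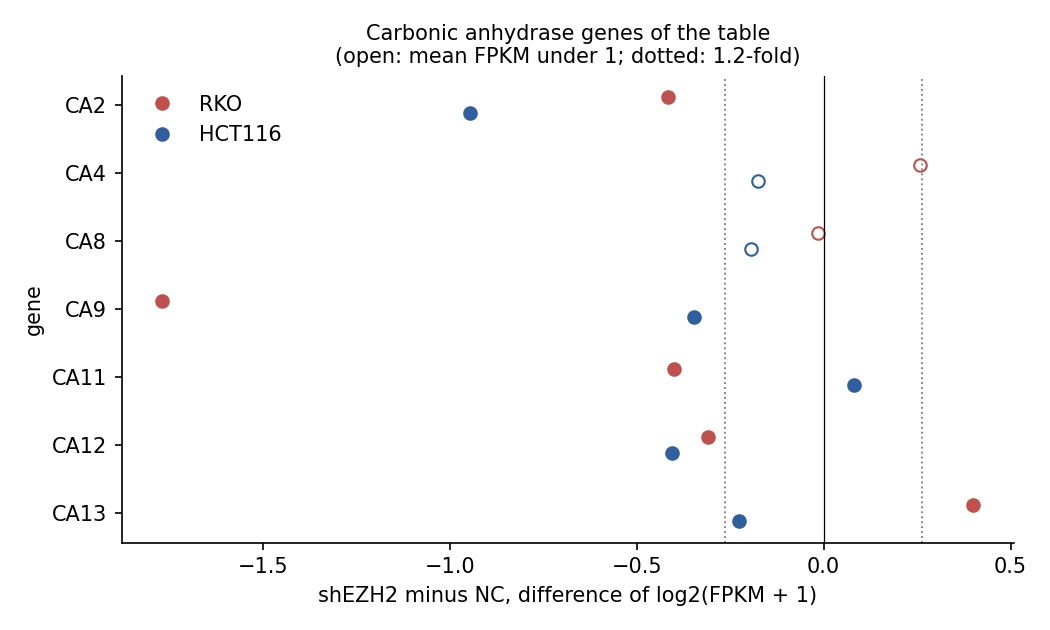
Difference of log2(FPKM + 1), shEZH2 minus NC, for the 7 carbonic anhydrase genes of the table in RKO and HCT116 (1 pair of libraries per point); open points are genes under 1 FPKM on average and dotted lines mark 1.2-fold. CA2, CA9 and CA12 lie left of the dotted line in both lines, and CA13 lies on opposite sides of 0.

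For a change common to the lines, limma was fitted to all measured genes with the line as a block, which leaves little power with 4 libraries. It called 0 genes, or 0%, at an adjusted p of 0.05, where 168 genes up and 143 down had an unadjusted p under 0.05. edgeR called 0 genes as well, and DESeq2 9. Of 72 measured genes in the pathway lists used here, other than CA2 and CA9, limma called 0, and an unadjusted p under 0.05 was reached by 7 (5 up and 2 down). edgeR and DESeq2 also called 0 of the 72, with 2 higher and 3 lower genes by edgeR and 3 higher and 1 lower by DESeq2 at that level. In CA12 the log2 change common to the lines was -0.36 ± 0.15 (SE), with an adjusted p of 0.661 by limma. The difference between lines, RKO minus HCT116, was tested in the same fit, and limma called 64.2% of measured genes. All 3 other measured carbonic anhydrases were among them: CA12 (1.42, adjusted p of 0.00307) and CA13 (1.30, 0.0112) were higher in RKO, and CA11 (-1.66, 0.00400) was lower in RKO.

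CA9 is controlled through its promoter, where HIF-1 is known to bind a site next to the start of transcription. The 250 bases before the RefSeq start site of CA9 (GRCh38.p14, chr9:35673678-35673927, plus strand) are shown because CA9, among the lowest differences of RKO, is a textbook HIF-1 target. Capitals mark the letters ACGTG, one form of the core of the HIF binding site, the other being GCGTG, here read on the opposite strand as CACGT, whose first base lies 18 bases before the start site.
CA9: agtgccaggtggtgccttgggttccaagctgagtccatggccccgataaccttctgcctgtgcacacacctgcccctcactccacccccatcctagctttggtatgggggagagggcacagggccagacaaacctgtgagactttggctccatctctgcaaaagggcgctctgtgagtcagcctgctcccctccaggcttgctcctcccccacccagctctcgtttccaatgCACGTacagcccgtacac

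ACGTG was sought on both strands of the 250 bases before each start site. It overlaps the E-box CACGTG, which holds it on each strand. It was present in 18.7% of the 27305 promoters of the RefSeq table and in 21.9% of the 6043 promoters matched to genes of the table. Of 28 measured hypoxia targets with a promoter there, 15 (53.6%) held it. GCGTG was in 13 of the 28 (46.4%) and in 43.2% of the promoters of genes of the table, and either form in 71.4% and 54.8%. The CA9 window held no GCGTG. A match describes the letters only. CITED2 and LOX, both higher in RKO shEZH2 than in NC (log2 differences 1.41 and 1.38), also held ACGTG, with 2 and 4 matches. Some targets lower in RKO than ANKRD37 (-0.82) held none, P4HA2 (-0.92) among them, and NDRG1 had no promoter there. Whether a match goes with the RKO difference was not tested. The match nearest the start site is shown for CA9 and for the 4 hypoxia targets with a match whose levels were lowest in RKO shEZH2 relative to NC, each read on the strand that spells ACGTG. In GRCh38.p14 these windows are chr9:35673900-35673924 on the minus strand for CA9 and chr17:28576909-28576933 on the plus strand for ALDOC. For DDIT4 the window is chr10:72273789-72273813 on the plus strand, for PGK1 chrX:78104055-78104079 on the minus strand and for ANKRD37 chr4:185396688-185396712 on the plus strand.
CA9: tacgggctgtACGTGcattggaaac
ALDOC: tcgcagagctACGTGactcctccgg
DDIT4: aacgttgcttACGTGcgcccggagt
PGK1: tactagtgagACGTGcggcttccgt
ANKRD37: gtgtttgtgtACGTGcggccgtggc

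Among hypoxia targets other than CA9, genes down past 1.2-fold outnumbered those up in RKO shEZH2, and the counts ran the other way in HCT116 shEZH2. Of 34 measured targets of HIF, 17 stood lower and 4 higher in RKO shEZH2, where 10.9% of all measured genes stood lower and 22.7% higher. For HCT116 the counts were 3 lower and 11 higher, beside 9.66% and 12.7% of all measured genes. Targets at or near 0 FPKM in RKO, EGLN3 and PLOD2 among them, could not pass 1.2-fold there. The counts of the lines thus do not rest on the same expressed genes. The median log2 difference of the list was -0.27 in RKO and 0.06 in HCT116, against medians of 0.01 over all measured genes in each line. None of the 34 was over 1.2-fold lower in both lines, beside 2.66% of all measured genes, which is too small a share to set the list apart. DDIT4, an inhibitor of mTORC1 signaling, was at 12.17 FPKM in RKO shEZH2 against 27.52 in RKO NC, and the glycolytic kinase PGK1 at 197.07 FPKM in RKO shEZH2 against 398.54 in RKO NC.

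Among the targets, ALDOC, a glycolytic aldolase, was nearest to CA9 in size of difference in RKO, with 9.01 FPKM in RKO shEZH2 against 27.30 in RKO NC. In HCT116 it was at 72.28 FPKM in shEZH2 against 70.48 in NC. NDRG1, a stress and differentiation gene, was at 39.60 FPKM in RKO shEZH2 against 90.07 in RKO NC, and at 105.66 in HCT116 shEZH2 against 80.79 in HCT116 NC. The kinase PDK1, which restrains entry of pyruvate into mitochondria, was at 20.74 FPKM in RKO shEZH2 against 33.21 in RKO NC, and at 13.16 in HCT116 shEZH2 against 8.98 in HCT116 NC. ANKRD37 was at 3.31 FPKM in RKO shEZH2 against 6.60 in RKO NC, and at 1.95 in HCT116 shEZH2 against 1.19 in HCT116 NC. For ANKRD37 in HCT116 the count ratio of 1.64 had an interval of 0.867 to 2.99, so a difference was not detectable at this depth. NDRG1, PDK1 and ANKRD37 were among 5 of the 34 targets over 1.2-fold lower in RKO and higher in HCT116, as were 0.668% of all measured genes.

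Some targets went the other way in RKO. LOX, which crosslinks collagen, was at 3.91 FPKM in RKO shEZH2 against 0.89 in RKO NC, and at 0.25 in HCT116 shEZH2 against 0.28 in HCT116 NC. CITED2, a target that also restrains HIF, was at 38.67 FPKM in RKO shEZH2 against 13.89 in RKO NC, and at 24.24 in HCT116 shEZH2 against 30.21 in HCT116 NC. PLOD2, a collagen hydroxylase, was not one of these, at 0.04 and 0.00 FPKM in RKO shEZH2 and NC. It was higher in HCT116, at 39.30 FPKM in shEZH2 against 26.61 in NC.

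**Figure D4:**
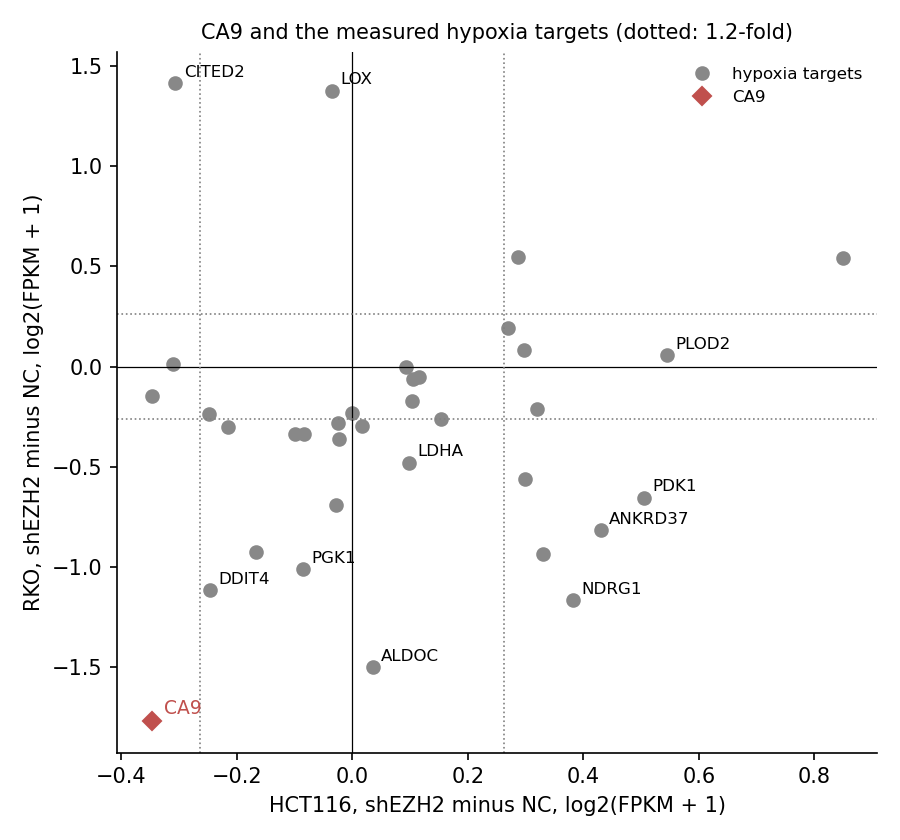
Differences of log2(FPKM + 1), shEZH2 minus NC, in HCT116 (horizontal axis) and RKO (vertical axis) for CA9 and 34 measured hypoxia targets; each point is 1 gene and dotted lines mark 1.2-fold. CA9 is the lowest point in RKO at -1.77, ALDOC follows near 0 in HCT116, and NDRG1, PDK1 and ANKRD37 lie lower right.

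The transcript of HIF1A, the oxygen-regulated subunit of HIF-1, was higher in both shEZH2 libraries. It was at 41.04 FPKM in RKO shEZH2 against 16.92 in RKO NC, and at 87.55 in HCT116 shEZH2 against 61.81 in HCT116 NC. The RKO log2 difference of 1.23 was 0.58 after the GC trend was subtracted. HIF1A is regulated mainly through protein stability, which was not measured. Only 7 of the 21 HIF regulators looked up had values. Of these 7, all measured, RKO shEZH2 had 3 above 1.2-fold and 0 below it, and HCT116 shEZH2 had 1 above and 1 below. Over all measured genes the shares were 22.7% above and 10.9% below in RKO, and 12.7% and 9.66% in HCT116. HSP90AA1, a chaperone that HIF1A binds, was at 1029.32 FPKM in RKO shEZH2 against 705.07 in RKO NC. EP300, a coactivator, lay within 1.2-fold in both lines, at 4.26 against 3.70 FPKM in RKO and 14.42 against 13.30 in HCT116. EGLN3, a prolyl hydroxylase that marks HIF for destruction, was listed at 0.00 in both RKO libraries and was at 5.75 FPKM in HCT116 shEZH2 against 5.33 in HCT116 NC.

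CA2 was set beside the other genes of colon differentiation. Of the 10 measured, RKO shEZH2 had 3 up and 0 down, and HCT116 shEZH2 had 0 up and 1 down, with medians of 0.04 and 0.00. Over all measured genes the shares were 22.7% up and 10.9% down in RKO, and 12.7% up and 9.66% down in HCT116. Genes of the list at or near 0 in RKO, such as KRT19, EPCAM, HNF4A and DPP4, could not pass 1.2-fold there. The RKO counts and median thus rest on fewer expressed genes, and with so few nothing is read from them. The gene lower in HCT116 was DPP4, a brush border peptidase, at 1.93 FPKM in HCT116 shEZH2 against 5.02 in HCT116 NC and listed at 0.00 in both RKO libraries. CDX2 was at 9.24 FPKM in RKO shEZH2 against 6.91 in RKO NC, and at 8.95 in HCT116 shEZH2 against 10.66 in HCT116 NC. Its RKO log2 difference of 0.37 was 0.11 with TMM scaling. EZR, a linker of membrane and actin in microvilli, was at 166.99 FPKM in RKO shEZH2 against 127.55 in RKO NC (log2 difference 0.39, or 0.22 with TMM scaling). KRT18 had 0.29 in RKO, or 0.12 with TMM scaling, and its reads can be shared with pseudogenes.

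The level of CA2 in each line was set beside that list as well. Of the 10 genes, limma called 9 lower in RKO than in HCT116 and 0 higher. Some of them, such as KRT19, EPCAM, HNF4A and DPP4, were at 0.06 FPKM or less in both RKO libraries. These passed the filter on mean FPKM only through HCT116, which fixed their direction, so nothing is read from that count. Of all 6139 measured genes it called 2440 lower and 1499 higher, or 64.2% in either direction. HNF4A, an intestinal transcription factor, was listed at 0.00 in both RKO libraries and was at 3.19 and 2.61 FPKM in HCT116 shEZH2 and NC. KLF4, a factor of the upper crypt, was at 1.08 and 1.37 FPKM in RKO shEZH2 and NC and at 9.53 and 8.68 in HCT116 shEZH2 and NC. CA2 had its highest level in RKO NC.

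Genes of the crypt stem cell, the other end of the differentiation axis, went both ways. Of 10 measured genes, RKO shEZH2 had 0 up and 2 down past 1.2-fold, and HCT116 shEZH2 had 2 up and 2 down, with medians of 0.01 in each line. The shares of all measured genes were 22.7% up and 10.9% down in RKO, and 12.7% up and 9.66% down in HCT116. Genes of the list at 0.07 FPKM or less in both RKO libraries, SOX9 and RNF43 among them, could not pass 1.2-fold there. CDCA7, a gene of proliferating crypt cells, was the only one lower in both lines, at 32.80 FPKM in RKO shEZH2 against 44.48 in RKO NC, and at 20.97 in HCT116 shEZH2 against 28.20 in HCT116 NC. SOX9 was at 49.19 FPKM in HCT116 shEZH2 against 37.20 in HCT116 NC and at 0.03 in each RKO library. RNF43, a ubiquitin ligase that restrains Wnt receptors, was at 46.09 FPKM in HCT116 shEZH2 against 37.12 in HCT116 NC. AXIN2, a target of Wnt signaling, was at 1.59 FPKM in RKO shEZH2 against 2.18 in RKO NC, and CD44, the hyaluronan receptor, at 159.79 FPKM in HCT116 shEZH2 against 194.07 in HCT116 NC.

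Carbonic anhydrases work with transporters of bicarbonate, protons and lactate. Of 11 measured genes of that list, RKO shEZH2 had 4 up and 1 down past 1.2-fold, beside 22.7% and 10.9% of all measured genes. HCT116 shEZH2 had 2 up and 2 down, beside 12.7% and 9.66%. The medians were 0.10 in RKO, which became -0.07 with TMM scaling, and 0.01 in HCT116. SLC4A7, a sodium bicarbonate cotransporter, was at 12.54 FPKM in RKO shEZH2 against 5.27 in RKO NC, and at 6.81 in HCT116 shEZH2 against 5.91 in HCT116 NC. Its RKO log2 difference of 1.11 was 0.55 after the GC trend was subtracted. SLC16A3, a lactate exporter and hypoxia target, was the gene lower in RKO, at 72.58 FPKM in RKO shEZH2 against 89.78 in RKO NC. SLC12A2, the cotransporter that loads chloride into secreting cells, was the only one over 1.2-fold higher in both lines at a pseudocount of 1. It was at 10 FPKM in RKO shEZH2 against 7.80 in RKO NC, and at 22.14 against 14.16 in HCT116. Its RKO log2 difference of 0.32 fell inside 1.2-fold at 0.25 by median-of-ratios scaling, 0.18 by TMM and 0.17 with the GC trend subtracted. SLC4A3, an anion exchanger, was at 7.26 FPKM in HCT116 shEZH2 against 4.90 in HCT116 NC, and SLC4A5, a bicarbonate cotransporter, at 1.98 FPKM in HCT116 shEZH2 against 2.92 in HCT116 NC.

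Markers of other cell types that carry CA2 or could be mixed in were looked up in the same way. The table listed 6 of 20, with a summed level of 275.40 FPKM in RKO shEZH2 and 288.42 in RKO NC, and of 13.84 in HCT116 shEZH2 and 15.07 in HCT116 NC. CD68, a lysosomal protein used as a macrophage marker, made up 271.43 and 283.57 FPKM of the RKO sums. The collagen gene COL1A1 was at 0.02 and 0.03 FPKM in RKO shEZH2 and NC and at 4.05 and 4 in HCT116 shEZH2 and NC, and the endothelial marker VWF did not exceed 0.13 in any library. ACTA2, a smooth muscle actin, was past 1.2-fold higher in both lines, at 3.35 FPKM in RKO shEZH2 against 1.94 in RKO NC (count ratio 1.73, interval 1.25 to 2.39), and at 5.10 FPKM in HCT116 shEZH2 against 3.95 in HCT116 NC (1.23, 0.958 to 1.59). The alpha globin HBA1 was at 0.00 FPKM in RKO shEZH2 and 2.12 in RKO NC, and HBA2 at 0.56 and 0.72. In HCT116 shEZH2 and NC, HBA2 was at 0.00 and 2.83 FPKM and HBA1 at 1.02 and 0.93. These globin genes are near-identical copies, so no value can be assigned to 1 of them, and their part in the CA2 differences was not tested.

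The genes most like each member over the 4 libraries were found by the root mean square distance between log2(FPKM + 1) profiles centred on their means, a description over 4 points. For CA2 the nearest were HOXD8, BHLHA15, SKP2, FHOD1 and PRXL2B, at distances of 0.107 to 0.172, where the median measured gene was at 0.711. BHLHA15 was at 6.31 FPKM in RKO shEZH2 against 9.58 in RKO NC, and at 2.69 in HCT116 shEZH2 against 5.09 in HCT116 NC. HOXD8, a homeobox factor, was at 2.56 FPKM in RKO shEZH2 against 3.12 in RKO NC, and at 0.89 in HCT116 shEZH2 against 2.25 in HCT116 NC. SKP2, a subunit of an ubiquitin ligase of the cell cycle, was at 26.19 FPKM in RKO shEZH2 against 38.86 in RKO NC, and at 14.87 in HCT116 shEZH2 against 21.97 in HCT116 NC. For CA9 the nearest were URGCP-MRPS24, a readthrough gene whose value is uncertain, TMEM234, PPM1F, NACC2 and BHLHE40, at distances of 0.330 to 0.412 with a median of 1.02. The distance is not scaled by the spread of a profile, and the median gene was also farther from CA9 than from CA2. The distances of the 2 members are therefore not compared. NACC2 was at 14.82 FPKM in RKO shEZH2 against 27.18 in RKO NC, and at 8.66 in HCT116 shEZH2 against 13.67 in HCT116 NC. BHLHE40, a transcription factor that is itself a hypoxia target, was at 25.95 FPKM in RKO shEZH2 against 42.54 in RKO NC, and at 11.87 in HCT116 shEZH2 against 12.12 in HCT116 NC.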

How the data were processed

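Per the labels, RNA was extracted with Trizol and sequenced on an MGISEQ-2000 after TruSeq library preparation. The authors used Bowtie for mapping and RSEM for quantification by their methods, which name a mouse build. The submitters' processing notes list Bowtie2, BWA, hg19 and GRCh37. Tool versions are not given in the sources used here. The authors deposited FPKM rounded to 2 decimals and expected counts for part of the genes, by an unstated rule. The log2 ratios of FPKM that the authors deposited were not used.

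Differences are of log2(FPKM + 1), shEZH2 minus NC, which understates changes of low genes, and calls need over 1.2-fold. Intervals of ratios are exact binomial, scaled by relative depth (median count per FPKM over 1054 genes). limma 3.58.1 with trend and Benjamini-Hochberg adjustment was fitted to the 6139 genes that averaged 1 FPKM or more, with line and hairpin as terms, and edgeR 4.0.16 and DESeq2 1.42.0 to rounded expected counts. Nothing says that cultures were independent, and with 1 library per group the p-values reflect no more than how these 4 libraries scatter. Of these fits, only that of limma was tried on simulated data, in which the lines did not differ. Transcript GC came from GENCODE 29 by gene ID, with a lowess span of 0.3. Promoters came from RefSeq (GRCh38.p14), another build than the notes name, matched by gene ID. 13 symbols that a spreadsheet had turned into dates were restored.

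Members and gene lists were chosen with earlier results of these data known. The lists are only partly covered by the deposited genes. Present were 36 of 55 hypoxia targets, 7 of 21 HIF regulators and 13 of 32 transport genes. So were 17 of 54 colon differentiation genes, CA2 included, and 11 of 18 crypt stem genes. Named were EZH2, all listed carbonic anhydrases, up to 4 genes per list and line with the largest difference, and the 5 nearest profiles. DDIT4, PGK1, P4HA2, SLC16A3 and HIST1H4J were named after their values were seen. A gene that this rule also names is not reported here.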

Additional observations from a re-analysis of the deposited data

Results flagged for a closer look

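In 4 of the named genes the lines differed from their NC libraries in opposite directions, each past 1.2-fold, with 1 pair of libraries per line, and the difference was not tested. The log2 difference in RKO minus that in HCT116 was -1.55 for NDRG1, -1.25 for ANKRD37 and -1.16 for PDK1, hypoxia targets that were lower in RKO shEZH2 and higher in HCT116 shEZH2. It was 1.72 for CITED2, which was higher in RKO shEZH2 and lower in HCT116 shEZH2. In HCT116 the count ratio of ANKRD37, 1.64, had an interval of 0.867 to 2.99 that includes 1. CA2 and CA9 were not among these genes.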

How the results depend on the processing

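The differences of CA2 and CA9 in each line were recomputed under 6 alternatives (pseudocounts of 0.1 and 0.01, equal FPKM totals, median-of-ratios scaling, counts with TMM scaling, and the GC trend subtracted). All 24 values were below 0 and past 1.2-fold. CA2 in RKO was -0.59 with TMM scaling, which shifted the median of all genes by -0.11, against -0.42 as reported. The cause of that move was not tested. CA9 in RKO was -2.29 with TMM scaling and -2.32 at a pseudocount of 0.01, against -1.77 as reported. The reported value has a pseudocount of 1, which understates changes of low genes. SLC16A7, a lactate transporter, had 0.47 in RKO and -0.53 after the GC trend was subtracted, and PLOD2, near 0 FPKM there, had 0.06 and -0.81. At 1.5-fold, RKO had 9 hypoxia targets down and 2 up, and HCT116 had 0 down and 1 up. At 2-fold RKO had 4 down and 2 up, and HCT116 0 either way. At these folds no other list had a count over 2 in either direction, and the 1 colon differentiation gene lower in HCT116 stayed called. Of 80 recomputed list medians, 74 moved by less than 0.1. Of the other recomputed values of named genes, 378 kept their side of 1.2-fold, 4 of them with a change of sign inside it, 18 passed it, 10 no longer did and 2 turned, those of SLC16A7 and PLOD2 in RKO. DESeq2 called 9 genes for a change common to the lines, against 0 by limma in all its settings and by edgeR. For the difference between lines, 2397 of 4113 genes were called at a mean FPKM of at least 5, against 3939 of 6139. The fit for the change common to the lines pairs shEZH2 with NC within each line. Without that block it also called 0 genes, with 1 up and 3 down at an unadjusted p under 0.05, against 168 and 143. Depth limits CA9 in HCT116, with 21 and 34 fragments, and the lack of replicates limits all differences within a line.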
